A study of Mus musculus with 20 samples.

Results

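Vsig8, Acsm3, Cyp2f2 and 2010016I18Rik are 4 of the 37074 gene names on a mouse expression array, and they were chosen by their measured differences in HFoleic vs Ref, as the largest rise and some of the largest falls in visceral adipose tissue of mice on an obesogenic diet, outside gene families treated elsewhere. Their differences in that comparison are therefore given as a description without a test. Together they carry 5 of the 39390 probes that were tested. Gene expression was measured in 20 male F3 mice of the strain C57bl/6J, with 1 array per mouse. The Ref group (6 mice) came from the control lineage, bred over the generations on a diet supplemented with high-oleic sunflower oil, and received a low-fat diet. The HFoleic group (6 mice) came from the same lineage and received a high-fat diet. The HFepa group (8 mice) received that high-fat diet too and came from a lineage whose diet held fish oil, mainly as the omega-3 fatty acid eicosapentaenoic acid (EPA). Diet and lineage therefore differ together between HFepa and Ref, and no mouse of the fish oil lineage on the low-fat diet was analysed here. The samples had been selected for RNA integrity before hybridization, and each mouse is referred to by its group and its replicate number.

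Visceral adipose tissue stores triglycerides in adipocytes, and in obesity it takes up macrophages that gather around dying adipocytes and turn over their lipid. Vsig8 encodes a membrane protein with V-set immunoglobulin domains, a fold shared by many receptors and ligands of immune and epithelial cells. Acsm3 encodes a mitochondrial acyl-CoA synthetase that couples butyrate and medium-chain fatty acids to coenzyme A, the step that commits them to breakdown. Cyp2f2 encodes a cytochrome P450 of the endoplasmic reticulum that oxidizes small aromatic compounds such as naphthalene, and it is best known from club cells of the airways and from liver. 2010016I18Rik is a gene for a non-coding RNA whose function is not known here.

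The probes are shown because each gene's level rests on 1 sequence of the array, except that Acsm3 has a second probe. Positions are those of the files on genome build mm9. The Vsig8 probe (NM_177723) lies at chr1:174493788-174493847 on the + strand, the Acsm3 probe (NM_212441) at chr7:126928021-126928080 on the + strand and the Cyp2f2 probe (NM_007817) at chr7:27918570-27918629 on the + strand. The second Acsm3 probe (AK143946) lies at chr7:126930954-126931013 on the + strand, beyond a probe for the gene Eri2. The 2010016I18Rik probe (NR_033207) lies at chr3:106286081-106286140 on the - strand. The last 30 bases are printed for the protein-coding genes and all 60 bases for the non-coding RNA, 5′ to 3′, with AATAAA, the letters of the usual polyadenylation signal, in capitals.

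Vsig8 probe: tgttagcacAATAAAgaaacttaaagactg
Acsm3 probe: aatgctcctgtaatctgccaacataaaatg
Acsm3 second probe: ttcttttataaaaaagctaatcaAATAAAa
Cyp2f2 probe: tatacgcacagaacctattctatgatgcac
2010016I18Rik probe: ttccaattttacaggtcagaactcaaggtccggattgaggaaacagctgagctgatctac

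The AATAAA letters stood in the Vsig8 probe and in the second Acsm3 probe and in neither of the other protein-coding probes. The stretch of 250 bases before the start of each gene is printed next, because 3 of the genes moved together from mouse to mouse. These stretches come from RefSeq on assembly GRCm38.p6, where all 4 symbols were found, and their coordinates cannot be set against the mm9 positions of the probes. They are chr1:172555688-172555937 (+) for Vsig8, chr7:119760673-119760922 (+) for Acsm3, chr7:27119705-27119954 (+) for Cyp2f2 and chr3:106485914-106486163 (-) for 2010016I18Rik. RefSeq gives Vsig8 another start, with its window at chr1:172559656-172559905, which is not printed. Capitals mark each match, on either strand, of the letters searched for.

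Vsig8 promoter: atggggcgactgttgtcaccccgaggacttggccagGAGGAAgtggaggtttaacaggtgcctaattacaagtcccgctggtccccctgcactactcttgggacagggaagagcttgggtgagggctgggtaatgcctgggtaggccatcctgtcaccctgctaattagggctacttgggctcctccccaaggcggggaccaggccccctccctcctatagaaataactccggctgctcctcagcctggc
Acsm3 promoter: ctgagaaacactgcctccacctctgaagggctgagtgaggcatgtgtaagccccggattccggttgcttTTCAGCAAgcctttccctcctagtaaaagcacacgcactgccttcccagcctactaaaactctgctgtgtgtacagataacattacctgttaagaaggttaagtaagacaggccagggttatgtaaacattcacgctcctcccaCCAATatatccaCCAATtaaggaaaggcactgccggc
Cyp2f2 promoter: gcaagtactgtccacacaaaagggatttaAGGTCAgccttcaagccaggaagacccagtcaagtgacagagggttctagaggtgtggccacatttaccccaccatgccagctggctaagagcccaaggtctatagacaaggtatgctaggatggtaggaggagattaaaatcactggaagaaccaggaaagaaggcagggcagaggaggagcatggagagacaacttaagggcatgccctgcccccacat
2010016I18Rik promoter: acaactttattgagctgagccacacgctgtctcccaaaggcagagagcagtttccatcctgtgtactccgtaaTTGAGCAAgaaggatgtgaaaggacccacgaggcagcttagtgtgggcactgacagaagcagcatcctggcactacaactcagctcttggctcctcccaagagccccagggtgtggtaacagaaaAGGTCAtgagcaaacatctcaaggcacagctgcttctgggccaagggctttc

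Both strands were searched for 8 motifs. GAGGAA, the core read by the macrophage and B cell factor PU.1, was found once in each of the Vsig8 windows and in none of the other 3 genes, and 23.3% of all 32851 RefSeq windows of this length hold it. AGGTCA, the half-site of many nuclear receptors, was found once in Cyp2f2 and once in 2010016I18Rik, against 14.0% of all windows. TTGCNNAA, a core read by C/EBP factors, was found once in Acsm3 and once in 2010016I18Rik, against 9.6% of all windows. CCAAT was found 2 times in Acsm3 only, against 33.8% of all windows. TATAAA (12.4% of all windows), GGGCGG (32.7%), CACGTG (6.0%) and TGANTCA (6.7%) were found in no window of the 4 genes. None of these matches overlap. They are matches of letters and do not show that a factor binds there.

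The arrays were alike in depth, with a median signal of 83 to 114 units, 66.1% to 71.9% of spots well above background and no saturated spot. They lie on 3 slides, each with mice of all 3 groups. All values below are log2 intensities after quantile normalization, so that 1 unit is a doubling, and the main probe of each of the 4 genes was well above background on all 20 arrays. Every adjusted p comes from limma, by the Benjamini-Hochberg procedure across the whole set of tested probes, and probes with an adjusted p under 0.05 are described as called. Markers of the tissue were present: the mean level of 14 adipocyte genes lay between 15.52 and 16.26 in all mice.

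Vsig8 was low in every Ref mouse and high in every HFoleic mouse, and it spread over both ranges in the HFepa group. In the Ref mice the lowest, median and highest levels were 6.65, 7.06 and 7.81. In the HFoleic mice they were 11.36, 12.82 and 13.24. In the HFepa mice they were 6.74, 9.29 and 14.08. The Ref and HFoleic groups were thus separated by a wide gap, whereas HFepa mouse 3 lay inside the Ref range and HFepa mice 1 (14.08) and 6 (13.38) lay above every HFoleic mouse. On the linear scale, the unnormalized signal of the probe was 86 to 199 units in the Ref mice and 2996 to 11207 units in the HFoleic mice. In bulk tissue, fewer or more cells of a type and less or more RNA per cell cannot be told apart.

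The mean of Vsig8 was 7.15 ± 0.49 (SD, n = 6) in Ref, 12.56 ± 0.74 (SD, n = 6) in HFoleic and 9.97 ± 2.51 (SD, n = 8) in HFepa. The log2 difference of HFoleic vs Ref was 5.41 (standard error 0.90), which is 42.5-fold and the largest rise among 25618 genes. In that comparison 30.8% of all tested probes were called, 15.2% upward and 15.6% downward, and 6.77% were higher without overlap between the groups. For HFepa vs Ref the log2 difference was 2.82 (standard error 0.84, limma adjusted p = 0.0732), with 7 of 8 HFepa mice above every Ref mouse. For HFepa vs HFoleic it was -2.59 (standard error 0.84, limma adjusted p = 0.131), with 6 of 8 HFepa mice below every HFoleic mouse and the other 2 above. Neither comparison passed the threshold. Without HFepa mouse 3 the rise over Ref was 3.28 and passed it (limma adjusted p = 0.0199), and without HFepa mouse 1 the difference from HFoleic was -3.18 and passed it (limma adjusted p = 0.0271). With array weights both passed it, at limma adjusted p = 0.0391 and 0.0233. Each was called in only 1 of the 20 fits with 1 array left out, with limma adjusted p up to 0.142 and 0.307.

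Acsm3, the acyl-CoA synthetase, was high in the Ref mice and lower in the HFoleic mice by a mean of 12.3-fold. The Ref levels had a minimum of 11.31 (mouse 7), a median of 12.35 and a maximum of 12.47, and mouse 7 stood below the other 5, which lay between 12.26 and 12.47. The HFoleic levels had a minimum of 7.25, a median of 7.84 and a maximum of 10.95. The HFepa levels had a minimum of 7.46, a median of 10.80 and a maximum of 11.11. All 14 mice on the high-fat diet lay below every Ref mouse. Within HFoleic, mice 1 (10.95) and 7 (9.76) stood above the other 4, which lay between 7.25 and 7.87. Within HFepa, mice 1 (7.46) and 6 (8.40) stood below the other 6, which lay between 10.34 and 11.11.

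The means of Acsm3 were 12.19 ± 0.44 (SD, n = 6) in Ref, 8.57 ± 1.45 (SD, n = 6) in HFoleic and 10.10 ± 1.38 (SD, n = 8) in HFepa. The log2 difference of HFoleic vs Ref was -3.62 (standard error 0.65), and 6.41% of all tested probes were lower there without overlap. HFepa vs Ref was -2.09 (standard error 0.61, limma adjusted p = 0.0676), a 4.24-fold lower level that missed the threshold although the groups did not overlap, as was the case for 0.607% of all tested probes in that direction. HFepa vs HFoleic was 1.54 (standard error 0.61, limma adjusted p = 0.168), and 2 of 8 HFepa mice lay above every HFoleic mouse. Leaving out HFoleic mouse 1 or HFepa mouse 3 brought HFepa vs Ref past the threshold (-2.09 and -2.21, limma adjusted p = 0.0392 and 0.0431). Leaving out HFoleic mouse 1 or HFepa mouse 1 did so for HFepa vs HFoleic (2.01 and 1.91, limma adjusted p = 0.0485 and 0.0382). Array weights did so too (1.96, limma adjusted p = 0.0276). Each comparison was called in only 2 of the 20 fits with 1 array left out, with limma adjusted p up to 0.141 and 0.365.

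The second Acsm3 probe was dim, and it was well above background on 5 Ref arrays, on 0 HFoleic arrays and on 3 HFepa arrays. Its measured means were 5.89 in Ref, 5.24 in HFoleic and 5.47 in HFepa. Because it was not well above background on any HFoleic array, its level there is only bounded, and Ref was at least 1.38-fold higher. That bound sets the Ref mean against the higher of the probe's own level and the lowest level well above background on each HFoleic array. The second probe was thus lower in HFoleic too, on the same arrays that chose the gene. It passed the filter without any HFoleic array, so its direction is no separate support. The size of the fall can be taken only from the bright probe.

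Cyp2f2, the cytochrome P450, was lower in most mice on the high-fat diet and was uneven in every group. Its Ref levels ran from 10.56 over a median of 11.08 to 14.02, and the highest belongs to mouse 5, with the other 5 mice at 11.69 or lower. Its HFoleic levels ran from 7.15 over a median of 7.72 to 10.17, and the highest belongs to mouse 6. Its HFepa levels ran from 7.77 over a median of 9.36 to 10.61. The Ref and HFoleic groups did not overlap, and HFepa mouse 7 reached the Ref range by a small margin.

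The means of Cyp2f2 were 11.52 ± 1.29 (SD, n = 6) in Ref, 8.16 ± 1.17 (SD, n = 6) in HFoleic and 9.19 ± 0.98 (SD, n = 8) in HFepa. HFoleic vs Ref was -3.36 (standard error 0.61), a 10.3-fold lower level. HFepa vs Ref was -2.32 (standard error 0.57, limma adjusted p = 0.0386), a 5.0-fold lower level with 7 of 8 HFepa mice below every Ref mouse. This was the only one of the 5 probes called in that comparison, in which 2.26% of all tested probes were called and 1.3% were called lower. HFepa vs HFoleic was 1.04 (standard error 0.57, limma adjusted p = 0.307), and none of the 5 probes was called in that comparison, in which 0.00254% of all tested probes were called. Nor were the groups free of overlap there for any of the 5 probes, against 0.162% of all tested probes higher and 0.272% lower in HFepa without overlap. The Ref and HFoleic arrays that picked the genes enter both comparisons with HFepa, and the comparisons share arrays with each other.

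The call of Cyp2f2 in HFepa vs Ref was near the threshold. Without Ref mouse 5 the difference was -1.82 and was not called (limma adjusted p = 0.0792). It was not called either without Ref mouse 3 (-2.40, limma adjusted p = 0.0707), Ref mouse 4 (-2.49, 0.0580) or Ref mouse 6 (-2.29, 0.0901), nor without HFepa mouse 1 (-2.12, 0.0731), HFepa mouse 5 (-2.35, 0.0548) or HFepa mouse 6 (-2.20, 0.0853). Fitted with the slide as a block, the difference was -2.33 and was not called (limma adjusted p = 0.0523). The direction was the same in each of these fits.

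2010016I18Rik, the non-coding RNA, was high in the Ref mice, lowest in the HFoleic mice and in between in the HFepa mice. The Ref levels had a minimum of 10.75, a median of 11.34 and a maximum of 11.84, the HFoleic levels a minimum of 7.47, a median of 8.49 and a maximum of 10.51, and the HFepa levels a minimum of 8.49, a median of 10.44 and a maximum of 11.38. The Ref and HFoleic groups did not overlap, and HFoleic mouse 1 (10.51) came closest to Ref. HFepa mice 1 (8.49) and 6 (9.40) were the lowest of their group, and HFepa mouse 3 (11.38) was the highest.

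The means of 2010016I18Rik were 11.34 ± 0.41 (SD, n = 6) in Ref, 8.73 ± 1.11 (SD, n = 6) in HFoleic and 10.25 ± 0.91 (SD, n = 8) in HFepa. HFoleic vs Ref was -2.61 (standard error 0.46), a 6.12-fold lower level. HFepa vs Ref was -1.09 (standard error 0.43, limma adjusted p = 0.160), with 6 of 8 HFepa mice below every Ref mouse. HFepa vs HFoleic was 1.52 (standard error 0.43, limma adjusted p = 0.120), with 4 of 8 HFepa mice above every HFoleic mouse. Neither passed the threshold. With 1 array left out, limma called HFepa vs Ref in 0 of 20 fits and HFepa vs HFoleic in 2 of 20. HFepa vs HFoleic passed it without HFoleic mouse 1 (1.88, limma adjusted p = 0.0307), without HFepa mouse 1 (1.77, limma adjusted p = 0.0271) and with array weights (1.75, limma adjusted p = 0.0210).

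**Figure D1:**
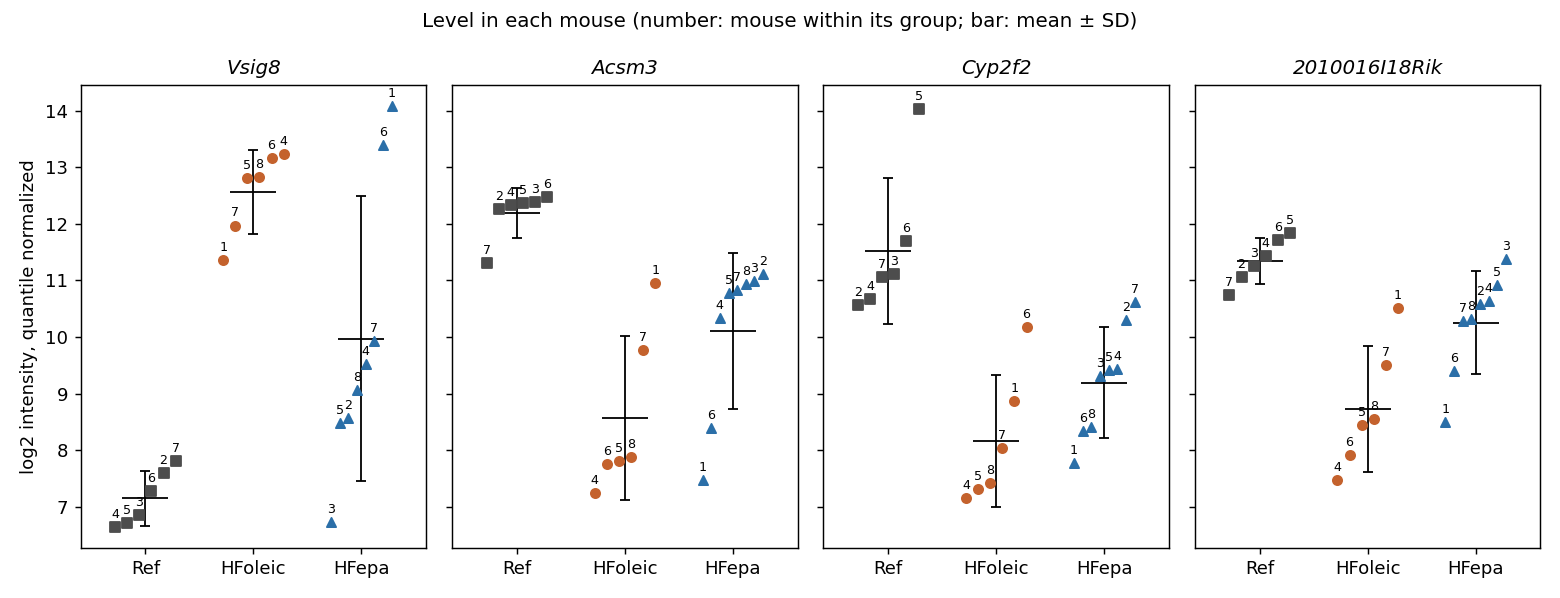
Log2 intensity of the main probe of each gene (vertical axis, log2 units) in the Ref, HFoleic and HFepa groups, with 1 point per mouse and the mean and SD of each group. The Ref and HFoleic groups do not overlap for any of the 4 genes, and 2 HFepa mice lie above every HFoleic mouse for Vsig8.

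The order of the group means was Ref, HFepa, HFoleic for all 4 genes, upward for Vsig8 and downward for the others. The genes were picked as extremes of HFoleic vs Ref, and this choice by itself favours a place between these groups for HFepa. How many of all genes have this order was not counted. Among neighbours in that order, limma called Cyp2f2 alone in HFepa vs Ref and none of the 4 genes in HFepa vs HFoleic. The adjustment is over all tested probes, and a difference that was not called is not shown to be absent. The spread within groups was wide. The SD of Vsig8 in HFepa was 2.51 against a median SD of 0.181 over all tested probes in that group. The SD of Acsm3 in HFoleic was 1.45 against a median of 0.145.

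Among the genes ordered by HFoleic vs Ref, Mmp12, a macrophage protease, came next below Vsig8 with a log2 difference of 5.24. Among the 3489 genes whose groups did not overlap, Acsm3 had the largest fall and Cyp2f2 came next, followed by Lama1 at -2.82. 2010016I18Rik stood between A830008E24Rik at -2.78 and Fam13a at -2.43. The median difference over all tested probes was -0.03, a value that quantile normalization holds near 0 by its construction.

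Each slide held mice of all groups, so the differences can also be taken within a slide. The Ref and HFoleic groups do not overlap for any of these genes, so the sign of HFoleic vs Ref within a slide was fixed in advance. Its differences were 5.22 to 5.98 for Vsig8, -4.59 to -3.46 for Acsm3, -5.38 to -2.02 for Cyp2f2 and -3.82 to -2.17 for 2010016I18Rik. Slide 2 held only 1 HFoleic mouse, and it gave the largest difference of each gene. On slides 1 and 3 alone the differences were 5.22 to 5.43, -3.62 to -3.46, -3.50 to -2.02 and -2.60 to -2.17 in the same order. HFepa vs Ref kept its sign on every slide, with 1.38 to 3.31 for Vsig8, -2.60 to -1.50 for Acsm3, -3.18 to -1.22 for Cyp2f2 and -1.26 to -0.74 for 2010016I18Rik. For Acsm3 this sign was fixed as well, since every HFepa mouse lay below every Ref mouse. HFepa vs HFoleic was -4.05 to -1.91 for Vsig8, 0.86 to 2.70 for Acsm3 and 0.92 to 2.73 for 2010016I18Rik, where 2.70 and 2.73 again rest on the lone HFoleic mouse of slide 2. For Cyp2f2 it changed sign between slides, from -0.29 to 2.28. Fitted with the slide as a block, HFepa vs Ref was 2.74 for Vsig8, -2.03 for Acsm3 and -1.05 for 2010016I18Rik (limma adjusted p = 0.0939, 0.0860 and 0.190). In the same fit HFepa vs HFoleic gave -2.71 for Vsig8, 1.66 for Acsm3, 0.96 for Cyp2f2 and 1.59 for 2010016I18Rik (limma adjusted p = 0.0793, 0.118, 0.349 and 0.0549).

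To set the genes side by side without comparing the levels of different probes, each mouse was placed on a scale that is 0 at the Ref mean and 1 at the HFoleic mean of the gene. Both means come from the groups used to choose the genes, and that choice favours places between 0 and 1 for HFepa. The median position of the 8 HFepa mice was 0.40 for Vsig8, 0.38 for Acsm3, 0.64 for Cyp2f2 and 0.34 for 2010016I18Rik. HFepa mouse 1 stood at 1.28, 1.30, 1.12 and 1.09 for these genes in the same order, beyond the HFoleic mean for each. HFepa mouse 6 stood at 1.15, 1.05, 0.95 and 0.74, and HFepa mouse 3 at -0.08, 0.33, 0.66 and -0.01. Apart from mice 1, 3 and 6, the HFepa mice lay between 0.17 and 0.63 in all genes, except Cyp2f2 in HFepa mouse 8 at 0.93. Mice 1 and 6 of the HFepa group thus stood near the HFoleic mice for all 4 genes, and mouse 3 near the Ref mice for Vsig8 and 2010016I18Rik.

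In each of the other groups 1 mouse stood at the same edge of its group for the genes other than Cyp2f2. HFoleic mouse 1 stood at 0.78 for Vsig8, 0.34 for Acsm3, 0.79 for Cyp2f2 and 0.32 for 2010016I18Rik, and was thus nearest to Ref of its group for the genes other than Cyp2f2. For Cyp2f2 that place was taken by HFoleic mouse 6 at 0.40. Ref mouse 7 was the Ref mouse nearest to HFoleic for Vsig8 (0.12), Acsm3 (0.24) and 2010016I18Rik (0.23). The order of the other Ref mice differed between genes, and Ref mouse 6 was farthest from HFoleic for Acsm3 (-0.08) but not for Vsig8 (0.02). Ref mouse 5 stood far outside both groups for Cyp2f2, at -0.75.

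**Figure D2:**
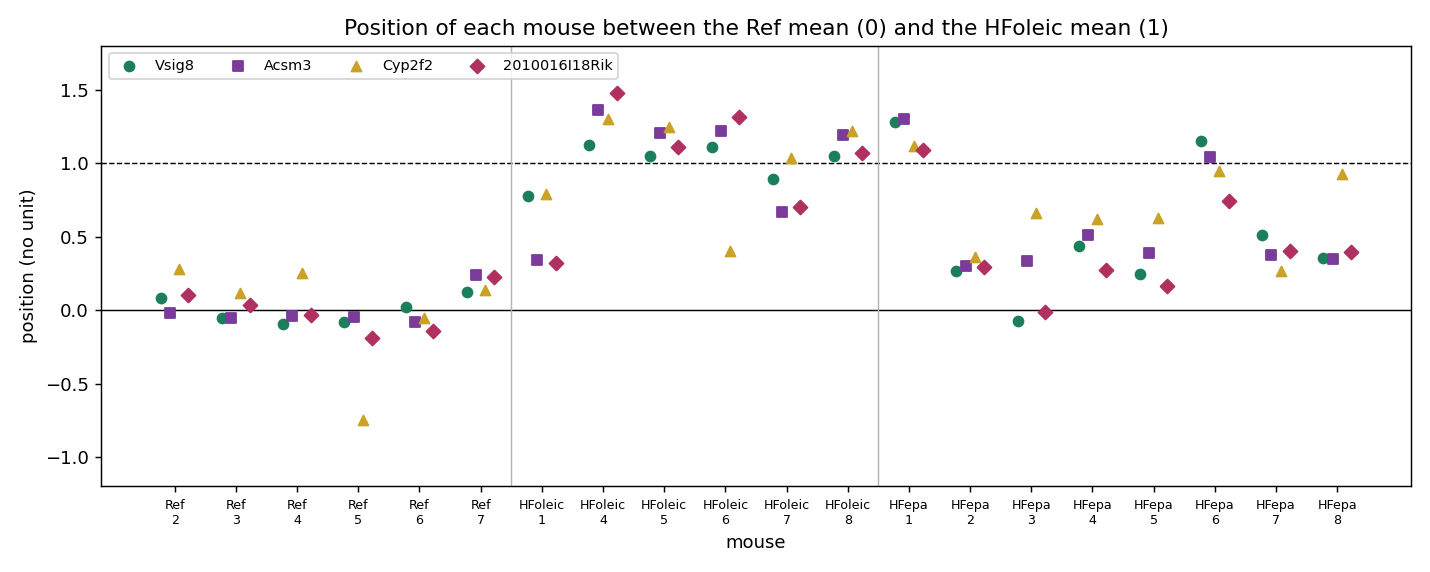
Position of each mouse for each gene (vertical axis, no unit), where 0 is the Ref mean and 1 the HFoleic mean of that gene, with 1 symbol per gene and the mice along the horizontal axis. HFepa mice 1 and 6 lie at 0.74 or more for all 4 genes, and HFepa mouse 3 lies near 0 for Vsig8 and 2010016I18Rik.

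Whether mice of 1 group that were high for 1 gene were also high or low for another was not part of the choice of the genes, and it was tested on the deviations of each mouse from the mean of its group. Over the 20 mice, Vsig8 was opposed to Acsm3 (r = -0.833, rho = -0.896, permutation p adjusted over 6 pairs = 4e-05 for r and 0.0003 for rho). It was likewise opposed to 2010016I18Rik (r = -0.816, rho = -0.898, adjusted permutation p = 3e-05 and 0.00012). Acsm3 and 2010016I18Rik went together (r = 0.928, rho = 0.884, adjusted permutation p = 3e-05 and 0.0003). Before adjustment the smallest of these p was 1e-05, the smallest that 100000 draws can give.

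These 3 relations also passed the threshold without the pair of mice farthest from the median of the first gene named. The deviations were still taken from group means that include the mice left out, which affects these values of r. Without HFepa mice 1 and 6, r was -0.683 for Vsig8 and Acsm3 and -0.760 for Vsig8 and 2010016I18Rik (adjusted permutation p = 0.00146 and 6e-05). Without HFoleic mouse 1 and HFepa mouse 1, r was 0.859 for Acsm3 and 2010016I18Rik (adjusted permutation p = 0.00111). With the means of the slides removed as well, the 3 values were -0.824, -0.799 and 0.925. In the 6 HFoleic mice r was -0.989, -0.990 and 0.973 (adjusted exact permutation p = 0.0111 for each) and rho -0.943, -0.943 and 1.0 (adjusted exact permutation p = 0.0333, 0.0333 and 0.0167). In the 8 HFepa mice r was -0.937, -0.966 and 0.911 and passed the threshold for all 3 (adjusted exact permutation p = 0.0161, 0.00357 and 0.0344). By rank only Vsig8 and 2010016I18Rik passed it in that group, since rho was -0.762, -0.929 and 0.571 (adjusted exact permutation p = 0.11, 0.0134 and 0.256). In the 6 Ref mice r was -0.684, -0.711 and 0.776, and none passed the threshold (adjusted exact permutation p = 0.192 for each), nor did rho, at -0.429, -0.714 and 0.714 (adjusted exact permutation p = 0.503, 0.262 and 0.262). The mice share their groups, slides and diet, and 20 mice limit the precision of these values. Genes outside the 4 reached larger r, up to 0.976 with Vsig8 and 0.984 with Acsm3, as given below. Such relations are thus not particular to these 3 genes, and the share of all genes that reach them was not counted.

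Cyp2f2 followed the other genes less closely. Its r was -0.381 with Vsig8, 0.429 with Acsm3 and 0.414 with 2010016I18Rik, and none passed the threshold (adjusted permutation p = 0.0753 for each). Its rho was -0.505, 0.568 and 0.591, and all passed it (adjusted permutation p = 0.0277, 0.0157 and 0.0157). Without Ref mouse 5 and HFoleic mouse 6, the pair of mice with the highest Cyp2f2 for their group, r with 2010016I18Rik was 0.667 (adjusted permutation p = 0.00529). Without the mice farthest from the median of the other gene, r was -0.149 with Vsig8 and 0.296 with Acsm3 (adjusted permutation p = 0.485 and 0.217). Within the HFepa group, r with Acsm3 was 0.740 and passed the threshold (adjusted exact permutation p = 0.0441), whereas rho was 0.548 and did not (adjusted exact permutation p = 0.256). That the correlations of Cyp2f2 differ from those of the other genes was not tested.

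**Figure D3:**
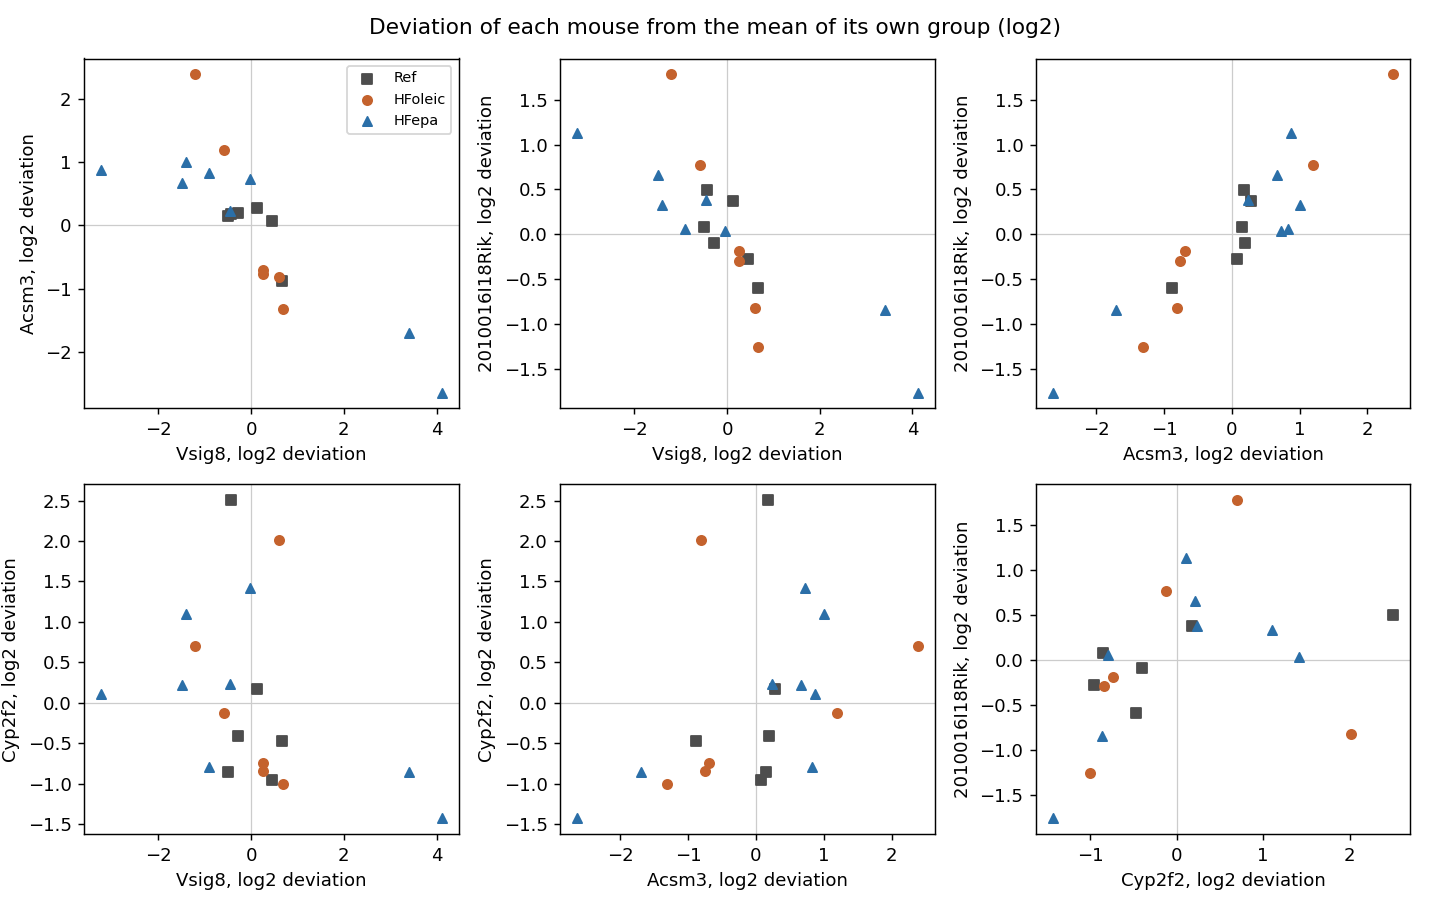
Deviation of each mouse from the mean of its own group, in log2 units on both axes, for the 6 pairs of the 4 genes, with 1 point per mouse and a symbol for each group. Points fall along a line for the 3 pairs without Cyp2f2, and scatter more for the pairs with it, where Ref mouse 5 and HFoleic mouse 6 stand high.

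Markers of macrophages moved with these genes. The marker counts here and below stand beside all genes, each by its brightest probe. Of these, 15.2% were called higher and 16.7% lower in HFoleic vs Ref, and 2.46% were called in HFepa vs Ref. Of 12 genes of lipid-associated macrophages, the cells that take up lipid in obese adipose tissue, 11 were called higher in HFoleic vs Ref, with Lpl the exception, and the median log2 difference was 2.66 against -0.03 over all tested probes. Trem2, a lipid receptor of these cells, had a log2 difference of 4.22 (limma adjusted p = 0.00067), and Gpnmb, a membrane glycoprotein of theirs, 4.89 (limma adjusted p = 0.000585). In HFepa vs Ref 1 of the 12 was called, Fabp5, a fatty acid-binding protein (0.75, limma adjusted p = 0.0385), and the median difference was 1.11. The mean level of the list was 10.82 to 11.62 in Ref, 12.97 to 14.41 in HFoleic and 11.22 to 14.70 in HFepa.

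The HFepa mice highest for Vsig8 were also highest for this list. They were mice 1 (14.70) and 6 (14.07), and the other HFepa mice lay between 11.22 and 12.65. HFoleic mouse 1 had the lowest level of its group, 12.97. Of 12 general macrophage genes, 7 were called higher and 1 lower in HFoleic vs Ref, with a median difference of 0.89. Markers of adipose stem cells and fibroblasts moved as well. Of 10 such genes, 5 were called higher and 0 lower in HFoleic vs Ref, beside 15.2% and 16.7% of all genes. The median difference was 0.42, and limma called 0 in HFepa vs Ref. Their mean level was 12.67 to 13.19 in Ref, 13.22 to 13.87 in HFoleic and 12.79 to 13.44 in HFepa, where mice 1 (13.44) and 6 (13.43) were again the highest. The part of macrophages, stem cells and fibroblasts in the changes of the 4 genes was not tested.

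**Figure D4:**
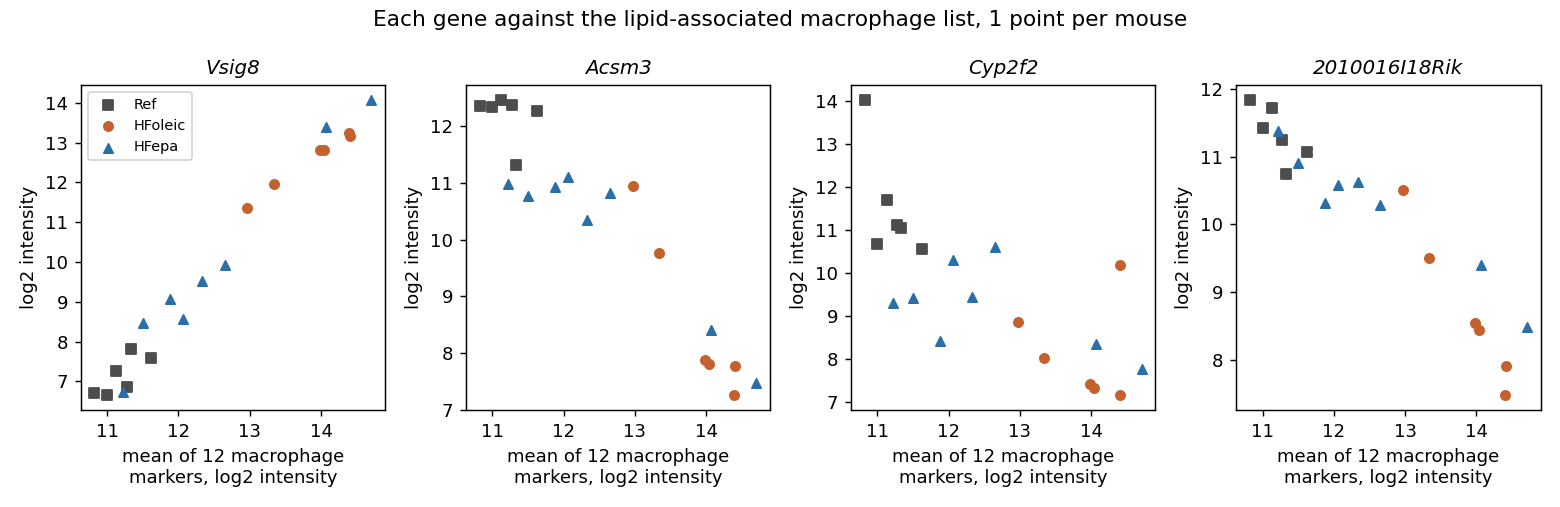
Log2 intensity of each of the 4 genes (vertical axes) against the mean log2 level of the 12 genes of lipid-associated macrophages (horizontal axes), with 1 point per mouse and a symbol for each group. HFepa mice 1 and 6 lie among or beyond the HFoleic mice, with list levels of 14.70 and 14.07.

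Markers of adipocytes had a smaller median difference. Of 14 adipocyte genes, 6 were called lower and 1 higher in HFoleic vs Ref, beside 16.7% and 15.2% of all genes. The median difference was -0.28, and 0 were called in HFepa vs Ref. Their mean level was 15.86 to 16.26 in Ref, 15.52 to 16.11 in HFoleic and 15.56 to 16.05 in HFepa, where mice 1 (15.56) and 6 (15.77) were the lowest. Their part in the falls of Acsm3, Cyp2f2 and 2010016I18Rik was not tested.

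Liver and lung are the tissues best known for Cyp2f2. Of 13 liver genes, 0 were called in HFoleic vs Ref by limma, with a median difference of -0.06. Their mean level was 6.76 to 9.46 in Ref, 6.84 to 10.83 in HFoleic and 7.43 to 9.84 in HFepa. HFoleic mouse 6, highest for Cyp2f2 in its group, was also highest for the liver list (10.83), and the next HFoleic mouse was at 8.00. Ref mouse 5, highest for Cyp2f2 of all mice, was at 8.23, inside the range of its group. Ref mouse 2, highest of its group for the liver list (9.46), was the lowest Ref mouse for Cyp2f2 (10.56). HFepa mouse 5, highest of its group for the list (9.84), had a Cyp2f2 level of 9.41, inside the range of its group. The part of liver tissue in the levels of Cyp2f2 was not tested. Without HFoleic mouse 6 the difference of Cyp2f2 in HFoleic vs Ref was -3.76, and without Ref mouse 5 it was -2.86. Of 7 lung genes, the surfactant genes Sftpa1 and Sftpb were well above background on 0 arrays, Sftpd on 2 and Sftpc on 4. The other 3, Scgb1a1, Scgb3a1 and Scgb3a2, were well above background on 20 arrays each and were tested. Their mean level was 6.77 to 7.18 over all mice. Of 12 markers of the epididymis, the organ beside this fat depot, 5 were tested, and their mean level was 7.19 to 8.92 over all mice.

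The genes related to the 4 by family or pathway are given next by list. The 4 genes are left out of the counts that follow, and the counts are read against the background of all genes, each by its brightest probe, of which 31.8% passed the threshold for HFoleic vs Ref (15.2% upward and 16.7% downward), 2.46% for HFepa vs Ref (1.03% upward and 1.42% downward) and 0% for HFepa vs HFoleic. In this last comparison limma called 0 genes of each list.

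Of 23 enzymes and transporters that couple fatty acids to coenzyme A, the function of Acsm3, 19 were tested, and 3 were called higher and 4 lower in HFoleic vs Ref, with a median log2 difference of -0.14. Acsl5, a long-chain acyl-CoA synthetase, rose by 0.45 (limma adjusted p = 0.000533), and Slc27a3, a transport protein with this activity, by 0.41 (limma adjusted p = 0.00702). Slc27a1, the insulin-responsive fatty acid transport protein, was lower, with -0.74 (limma adjusted p = 0.00700). In HFepa vs Ref only Acsl5 was called (0.27, limma adjusted p = 0.0497). That call was at the edge of the threshold, and 1 gene of the list was called in 8 of 33 alternatives. None was called with the processed signal, median centring, no filter on dim probes, the slide as a block or array weights (limma, 0 genes each). Acsm1, the family member with a probe near Acsm3, had -0.21 in HFoleic vs Ref (limma adjusted p = 0.505) and was not called. Its mean level over all mice was 5.89, near the lowest levels well above background (5.23 to 5.46). A fall as large as that of Acsm3 could not show there.

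A list of 22 genes covered the breakdown of butanoate and medium-chain fatty acids, and not all of them act after Acsm3. Of these, 2 were called higher and 7 lower in HFoleic vs Ref, with a median log2 difference of -0.10. Echs1, the enoyl-CoA hydratase of mitochondria, had -0.51 (limma adjusted p = 0.00147). Abat, which degrades the amino acid GABA, was higher, with 0.68 in HFoleic vs Ref (limma adjusted p = 0.00251) and 0.80 in HFepa vs Ref (limma adjusted p = 0.0146). In HFepa vs Ref 1 gene of the list was called higher and 1 lower.

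Of 45 genes of the Cyp2 family, 35 were tested, and 3 were called higher and 6 lower in HFoleic vs Ref, with a median log2 difference of -0.01. Cyp2c44, an arachidonic acid epoxygenase, was higher in both high-fat groups, with means of 6.90 in Ref, 9.41 in HFoleic and 8.53 in HFepa (2.52 and 1.63, limma adjusted p = 0.000403 and 0.0280), and was the only one called in HFepa vs Ref. Cyp2c70, known for its role in bile acid synthesis, had 1.10 in HFoleic vs Ref (limma adjusted p = 0.000515). Cyp2d11 had -1.23 (limma adjusted p = 0.000905), with the reservation that mouse Cyp2d genes are so alike that a probe may read more than 1 of them. Cyp2e1, which oxidizes ethanol, had -1.29 (limma adjusted p = 0.0105).

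Of 42 other genes that handle foreign compounds, 39 were tested, and 2 were called higher and 17 lower in HFoleic vs Ref, with a median log2 difference of -0.36. Fmo1, a flavin monooxygenase, had -1.19 in HFoleic vs Ref and -0.94 in HFepa vs Ref (limma adjusted p = 0.000453 and 0.0158). Sult1a1, a sulfotransferase, had -0.89 and -0.69 (limma adjusted p = 0.00140 and 0.0385). Ephx1, the microsomal epoxide hydrolase, was higher in HFoleic vs Ref, with 1.00 (limma adjusted p = 0.00062), and had 0.62 in HFepa vs Ref, which was not called (limma adjusted p = 0.0501). In HFepa vs Ref no other gene of the list was called.

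Of 22 receptors with V-set domains related to Vsig8, 19 were tested, and 2 were called higher and 4 lower in HFoleic vs Ref, with a median log2 difference of -0.18, and 0 were called in HFepa vs Ref by limma. Amica1, an adhesion molecule of leukocytes, rose by 0.59 (limma adjusted p = 0.00822). Igsf9, an adhesion protein, had -0.96 (limma adjusted p = 0.00328), and Jam2, an adhesion molecule of endothelial junctions, had -0.40 (limma adjusted p = 0.0158). Mpzl2 had the largest difference of the list in HFoleic vs Ref, -2.14, and was called, although its groups overlapped. The 6 called of 19 are close to the share of all genes called in that comparison, and the count ran from 3 to 9 over the alternatives.

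The genes with a tested probe within 200 kb of each gene on mm9 were taken next. Near Vsig8, 4 of 11 were called higher and 1 lower in HFoleic vs Ref. The nearest of those called was Slamf8, a receptor of macrophages and other myeloid cells with a probe 18.3 kb away, with means of 7.13 in Ref, 9.69 in HFoleic and 8.47 in HFepa (2.56 in HFoleic vs Ref, limma adjusted p = 0.000717). Slamf9, of the same receptor family, rose by 0.87 (limma adjusted p = 0.0122), and Tagln2, an actin-binding protein, by 0.46 (limma adjusted p = 0.0127). Igsf9, described above, is the gene called lower.

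Near 2010016I18Rik, 1 of 8 was called higher and 4 lower. Gm10673, with a probe 2.68 kb from that of 2010016I18Rik, had -1.73 (limma adjusted p = 0.00158). Dennd2d, an activator of Rab proteins 17.6 kb away, had -1.34 (limma adjusted p = 0.00246), and Chil6, a chitinase-like protein 95.8 kb away, had -1.18 (limma adjusted p = 0.000566). Near Acsm3, 0 of 8 were called higher and 3 lower, and 2610020H08Rik had the largest difference, -1.13 (limma adjusted p = 0.000591). Eri2, whose probe lies between those of Acsm3, had -0.09 and was not called (limma adjusted p = 0.525).

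Near Cyp2f2, 1 of 12 was called higher and 3 lower, each by less than 0.6. Adck4, a kinase-like protein of coenzyme Q synthesis, had -0.56 in HFoleic vs Ref and -0.35 in HFepa vs Ref (limma adjusted p = 0.000573 and 0.0447), and no other neighbour passed the threshold in HFepa vs Ref. Rab4b, a small GTPase of endosomes, rose by 0.53 (limma adjusted p = 0.00139). Cyp2a12 and Cyp2t4, the family members tested beside Cyp2f2, had -0.06 and 0.03 and were not called (limma adjusted p = 0.956 and 0.850). Their mean levels over all mice were 6.44 and 6.17. The lowest levels well above background were 5.23 to 5.46, so a fall as large as that of Cyp2f2 could not show there.

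**Figure D5:**
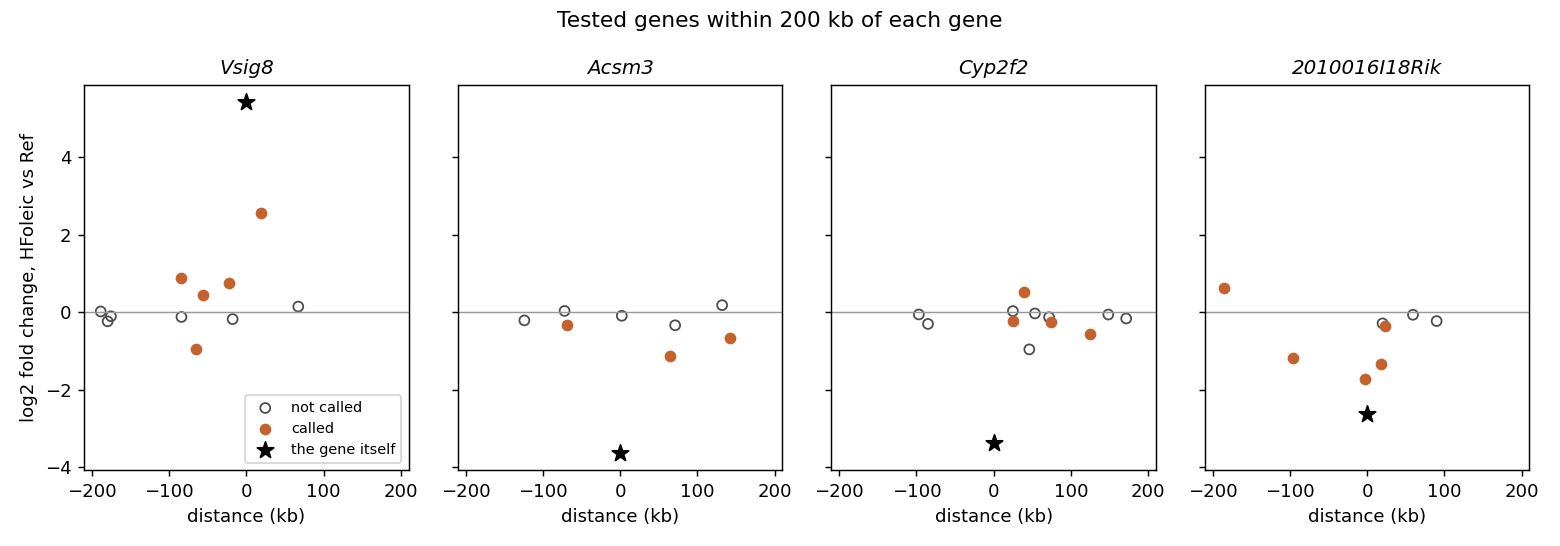
Log2 fold change of HFoleic vs Ref (vertical axis) of the tested genes within 200 kb of each of the 4 genes, against the distance of their probes in kb (horizontal axis), with filled points for genes called by limma and a star for the gene itself. Slamf8 at 2.56 lies above the other neighbours of Vsig8, and Gm10673 at -1.73, Dennd2d at -1.34 and Chil6 at -1.18 are the lowest neighbours of 2010016I18Rik.

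The genes most like each of the 4 were found by the correlation of the deviations from group means over the 20 mice, among 25602 genes, as a description without a test. For Vsig8 they were Adam8, a metalloprotease of leukocytes (r = 0.976), the kinase gene Matk (0.972), the coagulation factor gene F7 (0.972), Gpnmb (0.972) and Trem2 (0.966). For Acsm3 they were Sqrdl, the sulfide quinone reductase of mitochondria (0.984), the salt-inducible kinase gene Sik2 (0.954), Gm4013 (0.946), Klhl2 (0.943) and Fahd2a (0.940). For 2010016I18Rik they were Adig, a small protein of adipocytes (0.972), H2-Ke6 (0.970), 2310010J17Rik (0.969), Fam13a (0.958) and Ggnbp2os (0.954). The likeness was weaker for Cyp2f2, with Pofut2 (0.847), Pon1, the paraoxonase of liver and serum (0.818), 4632404H12Rik (0.806), AK162351 (0.780) and Otub1 (0.752). Of the 5 genes most like Cyp2f2, Pon1 was called in HFoleic vs Ref (-1.40, limma adjusted p = 0.0253), and its mean levels were 8.14 in Ref, 6.74 in HFoleic and 7.49 in HFepa.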

How the data were processed

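Visceral adipose tissue RNA of 20 mice was hybridized to Agilent arrays of 1 colour. The authors extracted the spot intensities with Agilent Feature Extraction 10.10.1.1, and the deposited median intensity has no background correction or normalization. The authors also deposited log2 values after a filter and quantile normalization, and for each array these correlate at 0.9997 or more with the log2 median intensity over 38132 probes. The rule of their filter is not given in the sources used here.

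Spots of controls were dropped, and a spot that the scanner software had marked as non-uniform or an outlier of its population was treated as missing. The log2 median intensities were quantile normalized, and a probe was tested if well above background on at least 6 arrays. limma 3.58.1 (R 4.3.3, with the package data.table, version 1.17.8) fitted 1 mean for each group to all arrays, with eBayes and Benjamini-Hochberg adjustment, and 24 values of the table were missing. Spots of 1 probe were averaged, and a gene is given by its brightest probe. The steps were tested on simulated data. Deviations were compared by permuting mice within groups, two-sided, with 100000 draws, or exactly within 1 group. Plots were drawn with matplotlib 3.10.9.

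Groups were taken from the sample titles. Whether each array comes from a separate animal is stated by the study's methods and not by the labels, and p-values measure only the spread between these samples. The genes and the lists were chosen with earlier results of these data known. The genes named are the 4 genes, in each list at most the 3 with the smallest p among those called in a comparison and the gene with the brightest probe (not always printed), tested genes within 200 kb (the called ones and relatives of the 4), the 5 most like each gene, and the neighbours in rank, and some genes that this rule names are not reported here. The marker genes Trem2, Gpnmb, Fabp5, Lpl, Sftpa1, Sftpb, Sftpc, Sftpd, Scgb1a1, Scgb3a1 and Scgb3a2 were named after their values were seen. So was Mpzl2 of the V-set list. Tried as alternatives were the scanner's processed signal, scaled to its 75th percentile, normexp correction with an offset of 50, median centring, the authors' log2 values, 2 other filters, marked spots kept, blocks for the slide or for the replicate number, weights per array, an intensity trend, the compared groups only, the average over a gene's probes, and each array left out.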

Additional observations from a re-analysis of the deposited data

Results flagged for a closer look

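A pair of mice stood apart from the others of their group of 6 by the gap to the nearest mouse as a share of the range of the group. Acsm3 in Ref mouse 7 was 11.31 when the other Ref mice lay between 12.26 and 12.47, and this gap was 0.823 of the range, against a critical value of 0.625. Cyp2f2 in Ref mouse 5 was 14.02 when the other Ref mice lay between 10.56 and 11.69, with a gap of 0.674 of the range. Chance alone gives about 1 such group in 20. Without Ref mouse 7 the difference of Acsm3 in HFoleic vs Ref was -3.80, and without Ref mouse 5 that of Cyp2f2 was -2.86.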

How the results depend on the processing

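No difference of the 4 genes changed sign under any alternative or left-out array. The groups do not overlap for HFoleic vs Ref, nor for Acsm3 in HFepa vs Ref. Leaving out an array could therefore not change those signs. The difference of Cyp2f2 in HFepa vs Ref, called at -2.32 (limma adjusted p = 0.0386), was not called with the processed signal (-2.44, 0.0519), without a filter on dim probes (-2.32, 0.0513), with a block for the slide (-2.33, 0.0523), with weights per array (-1.80, 0.0851) or in a fit to the compared groups only (-2.32, 0.0622). With array weights, Vsig8 was called in HFepa vs Ref (2.79) and in HFepa vs HFoleic (-2.78), as were Acsm3 (1.96) and 2010016I18Rik (1.75) in the latter. The mean of both probes gave -2.14 for Acsm3 in HFoleic vs Ref, but it includes the second probe, whose HFoleic level is only bounded. With 1 array left out, HFepa vs Ref ranged from 2.23 to 3.28 for Vsig8, from -2.26 to -1.71 for Acsm3, from -2.52 to -1.82 for Cyp2f2 and from -1.26 to -0.84 for 2010016I18Rik. HFepa vs HFoleic then ranged from -3.18 to -2.13, from 1.27 to 2.01, from 0.83 to 1.44 and from 1.27 to 1.88 in the same order, and HFoleic vs Ref from 5.27 to 5.65, from -4.10 to -3.36, from -3.76 to -2.86 and from -2.97 to -2.36. Same-numbered mice of different groups did not deviate together as a set (r from -0.587 to 0.559 over 16 pairs, median -0.083). The paper states that the HFoleic and HFepa mice were matched for body weight. Whether the numbers follow that matching is not known, and these values cannot exclude it. With the replicate block Cyp2f2 in HFepa vs Ref was -2.13 (limma adjusted p = 0.150). The genes called in HFoleic vs Ref ranged over all alternatives from 2 to 9 for the ligases, 6 to 15 for butanoate breakdown, 7 to 11 for Cyp2, 8 to 23 for foreign compounds and 3 to 9 for V-set receptors, and those in HFepa vs Ref from 0 to 2, 0 to 5, 0 to 5, 0 to 4 and 0 to 1. Over all tested probes, HFepa vs HFoleic had 1 call, against 1297 with the slide as a block and 4304 with array weights, and the cause was not tested.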
